A study of Mus musculus with 6 samples.

Results

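The MHC class II presentation genes are H2-Aa, H2-Ab1, H2-Eb1, H2-DMa, H2-DMb1, Cd74 and Ciita, 7 of the 45777 genes in the expression table, chosen by symbol. They were read in RNA sequencing of 6 libraries of cultured dorsal root ganglion (DRG) neurons, the primary afferents of touch and pain. In 3 libraries the cultures had received oncomodulin (ONCM), a calcium-binding protein made recombinantly, for 12 hours at 100 ng/ml, and in the 3 control libraries PBS. All came, per the labels, from wild-type C57BL/6 mice that were female and 8 weeks old. The labels call the samples biological replicates without naming separate animals or cultures, so p-values measure the spread between these libraries, which may be technical.

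Class II molecules carry peptides from endocytosed proteins to the cell surface, where CD4 T cells read them. An alpha and a beta chain pair in the endoplasmic reticulum with the invariant chain, encoded by Cd74, which blocks the groove and steers the complex to endosomes. There proteases trim the invariant chain, and the DM heterodimer, encoded by H2-DMa and the H2-DMb genes, exchanges the remaining fragment for peptide. Transcription of these genes depends on CIITA, a coactivator that does not bind DNA itself and is recruited by factors on the S, X and Y boxes of their promoters. Dendritic cells, B cells and macrophages are the usual carriers of class II, and interferon-gamma can induce Ciita in many other cell types.

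The total count was 53770820 to 60291315 in ONCM libraries and 55920700 to 64477014 in PBS libraries. Marker genes of sensory neurons were all detected, and their summed level was 15277 to 16098 CPM (counts scaled to library size, with TMM factors between libraries) with ONCM and 16984 to 17434 CPM with PBS. Schwann cell markers summed to 3844 to 4002 CPM with ONCM and 3699 to 3768 CPM with PBS, so the cultures also held glial RNA. Xist, the transcript that coats the inactive X chromosome, stood at 478 ± 55.8 CPM with ONCM and 0.530 ± 0.0526 CPM with PBS (SD, n = 3 each). Ddx3y on chromosome Y stood at 16.1 ± 0.933 CPM with ONCM and 60.5 ± 2.17 CPM with PBS. Counts of a Y-linked gene in every library go against the label of female animals, and the low Xist level goes against it in the PBS libraries. The sex or source of the cells and the treatment therefore cannot be told apart for any gene below.

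Every class II member was higher in the ONCM libraries. By edgeR's quasi-likelihood test with Benjamini-Hochberg adjustment over all tested genes, 7 of 7 members rose and 0 fell, at an adjusted p threshold of 0.05. Rises made up 23.9% of the 20354 genes tested, falls 24.4% and calls in either direction 48.3%, so a call by itself was common in these libraries. The sizes were less common. The members had a median log2 fold change of 1.22, against -0.00 over all tested genes, and 6 of 7 had at least 1, a mark that 6.18% of tested genes passed as rises. In all 7 the lowest ONCM library stood above the highest PBS library, as it did for 27.6% of tested genes. The members were chosen with earlier results of these data known, so these contrasts with all tested genes are no test of the group. Summed over the members, the level was 172 ± 9.03 CPM with ONCM and 81.3 ± 4.06 CPM with PBS (SD, n = 3 each), a ratio of 2.12. In these bulk libraries, more cells of a type and more RNA per cell cannot be told apart.

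**Figure D1:**
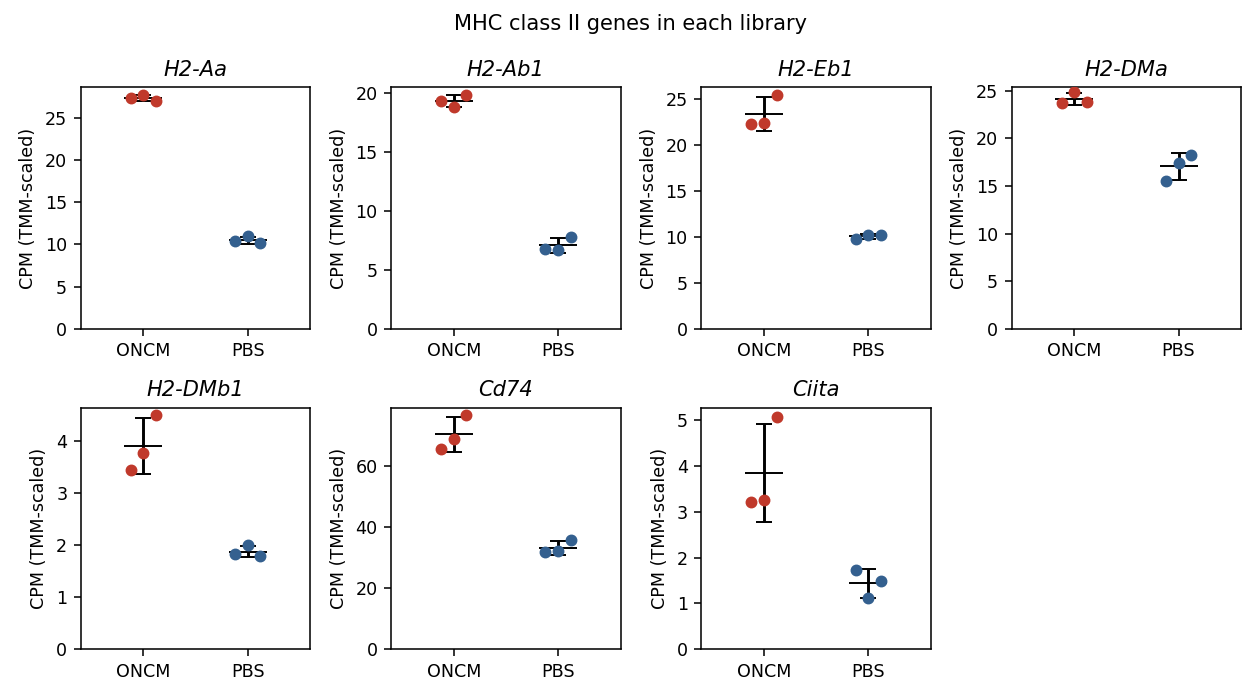
TMM-scaled CPM of each class II member in the 3 ONCM and 3 PBS libraries, each point a library, with the mean and SD as bars. The groups do not overlap in any of the 7 panels, and Ciita has its highest point in ONCM replicate 3, at 5.07 CPM.

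The chains of the A molecule, the class II molecule that C57BL/6 mice carry at the cell surface, rose by similar amounts. H2-Aa, the A alpha chain (chromosome 17, 34282744 to 34287823, mm10), stood at 27.4, 27.8 and 27.0 CPM in the ONCM libraries and at 10.4, 11.0 and 10.2 CPM in the PBS libraries. Both groups were tight, and the gap between them was many times the spread within either. The log2 fold change was 1.38 (SE 0.06, with an adjusted p = 5.11e-13 by edgeR), a 2.61-fold rise. H2-Ab1, the A beta chain (chromosome 17, 34263227 to 34269418), stood at 19.3, 18.8 and 19.8 CPM with ONCM and at 6.74, 6.67 and 7.79 CPM with PBS. Its rise was 2.73-fold, a log2 fold change of 1.45 (SE 0.07, with an adjusted p = 7.60e-12 by edgeR), the largest of the members. Relative to each other the A chains overlapped between the groups. Counts of H2-Ab1 per count of H2-Aa were 0.703, 0.676 and 0.733 with ONCM and 0.651, 0.607 and 0.765 with PBS.

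H2-Eb1 encodes the beta chain of the E molecule (chromosome 17, 34305867 to 34316674). It stood at 22.3, 22.4 and 25.5 CPM with ONCM and at 9.74, 10.2 and 10.2 CPM with PBS, a log2 fold change of 1.22 (SE 0.07, with an adjusted p = 3.07e-11 by edgeR). The ONCM libraries lay more than 2 times above the PBS libraries, with replicate 3 the highest. In the b haplotype of C57BL/6 the E alpha gene does not yield a chain, so E beta has no partner. The E alpha gene, which the table names H2-Ea-ps, had 4 counts in ONCM replicate 3 and 0 in the other 5 libraries.

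The class II chain promoters carry the X box, bound by the RFX complex, and the Y box, bound by NF-Y, at a set distance from each other. RefSeq promoter windows (GRCm38.p6, the assembly of mm10) were at hand for 4 members, H2-Aa, H2-Eb1, H2-DMb1 and H2-DMa. A search of the 250 bases before each start site, on both strands, looked for the X-like letters CTNGNAAC and the Y-like letters ATTGG, which do not overlap each other. These letters were set with the member promoters in view. The pair, with 20 to 40 bases from the start of the first to the start of the second, was found for H2-Aa, H2-Eb1 and H2-DMb1, and in 0.244% of 32851 promoter windows in the table. The stretches are shown to compare the spacing, 5′ to 3′ on the gene's strand, with the matched letters in capitals.
H2-Aa, chr17:34287857-34287917, minus strand: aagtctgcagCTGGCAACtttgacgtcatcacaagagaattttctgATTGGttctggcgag
H2-Eb1, chr17:34305763-34305822, plus strand: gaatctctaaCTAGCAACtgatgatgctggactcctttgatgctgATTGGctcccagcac
H2-DMb1, chr17:34153084-34153144, plus strand: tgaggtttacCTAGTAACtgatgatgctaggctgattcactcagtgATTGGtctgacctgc
The first letters of the 2 motifs lay 36, 35 and 36 bases apart in H2-Aa, H2-Eb1 and H2-DMb1, with the X-like letters starting 84, 94 and 97 bases before the start site. Neither of the 2 windows listed for H2-DMa held the pair, and 1 of them held ATTGG alone. Of other class II genes with windows, H2-Ob held the pair, 33 bases apart, and H2-Oa, H2-DMb2 and H2-Eb2 did not. H2-Ob itself had only 3 to 11 counts per library. Singly, CTNGNAAC was in 10.9% and ATTGG in 33.8% of all windows.

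Genes of peptide loading rose by differing amounts. Cd74, the invariant chain (chromosome 18), stood at 65.7, 68.7 and 76.8 CPM with ONCM and at 31.8, 32.1 and 35.9 CPM with PBS. Its log2 fold change was 1.08 (SE 0.06, with an adjusted p = 5.46e-10 by edgeR), and in both groups replicate 3 was the highest library. H2-DMb1, a DM beta chain (chromosome 17, 34153191 to 34160229), had 185, 226 and 251 counts with ONCM and 118, 112 and 104 counts with PBS. Scaled, these were 3.44, 3.76 and 4.50 CPM with ONCM and 1.82, 2.00 and 1.80 CPM with PBS, a log2 fold change of 1.06 (SE 0.13, with an adjusted p = 2.88e-06 by edgeR). The neighbouring DM beta gene H2-DMb2 was lower, with 59, 44 and 63 counts with ONCM and 41, 22 and 43 counts with PBS. Its groups overlapped once scaled to library size, and its rise of 0.73 on the log2 scale (SE 0.27) had an edgeR adjusted p = 0.0310. Of the 50-base stretches of H2-DMb1 transcripts in GENCODE, 22.7% also occur in H2-DMb2 transcripts, so the separate values of these copies are uncertain.

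H2-DMa, the DM alpha chain (chromosome 17, 34119693 to 34139101), had the smallest rise of the members. It stood at 23.7, 24.9 and 23.8 CPM with ONCM and at 15.5, 17.4 and 18.3 CPM with PBS, a 1.42-fold difference. The log2 fold change was 0.50 (SE 0.06, with an adjusted p = 1.69e-06 by edgeR). RefSeq places 3122 bases of this gene over Brd2, which encodes a bromodomain protein and lies on the opposite strand. Brd2 had 17632 to 20208 counts with ONCM and 16528 to 19306 counts with PBS, and its own log2 fold change was 0.18. Of the 50-base stretches of H2-DMa transcripts, 8.43% occur in Brd2 transcripts when both strands are read. Whether the counting used strand is not stated in the sources at hand, and the share of H2-DMa counts that came from Brd2 was not tested.

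Ciita, the transactivator (chromosome 16, 10480014 to 10531064), was the least counted member. It had 173, 195 and 283 counts in the ONCM libraries and 112, 62 and 86 counts in the PBS libraries. Scaled, these were 3.22, 3.25 and 5.07 CPM with ONCM and 1.73, 1.11 and 1.49 CPM with PBS. Replicate 3 stood apart from the other ONCM libraries, and the lowest ONCM library was still above the highest PBS library. The log2 fold change was 1.40 (SE 0.20, with an adjusted p = 1.71e-05 by edgeR), and 1.15 without ONCM replicate 3. On the log2(TPM + 1) scale, which understates changes of low genes, it was 0.65. RefSeq places 15932 bases of the gene over the lncRNA LOC115488669, which had 81 to 103 counts with ONCM and 89 to 132 counts with PBS. In every PBS library this lncRNA had more counts than Ciita. The log2 fold change of the lncRNA was -0.28 (adjusted p = 0.175 by edgeR). RefSeq also places 858 bases over an end of Dexi, which had 1918 to 2201 counts with ONCM and 2294 to 2674 counts with PBS and fell by 0.15 on the log2 scale. Of the 50-base stretches of Ciita transcripts, 1.46% occur in Dexi. The share of Ciita counts that came from these genes was not tested.

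The members kept nearly the same order of level per transcript length, given here as the authors' deposited TPM (transcript abundance scaled to length and library total). Cd74 was highest, at 133 ± 9.81 TPM with ONCM and 65.4 ± 4.38 TPM with PBS (SD, n = 3 each), followed by H2-Aa at 59.1 ± 1.58 TPM with ONCM and 23.6 ± 0.997 TPM with PBS. With ONCM, H2-Ab1 at 39.3 TPM, H2-Eb1 at 34.0 TPM and H2-DMa at 23.0 TPM came next, and no neighbours in the order overlapped in their libraries. With PBS, H2-DMa at 17.5 TPM came before H2-Eb1 at 15.3 TPM and H2-Ab1 at 15.0 TPM, and the last pair overlapped. H2-DMb1 stood at 7.36 ± 0.931 TPM with ONCM and 3.69 ± 0.228 TPM with PBS. Ciita was lowest in both groups, at 1.36 ± 0.0828 TPM with ONCM and 0.504 ± 0.0917 TPM with PBS. For Ciita and H2-DMa the TPM also rests on how reads were shared among transcripts. The transcript length implied by each library's count, total count and deposited FPKM (fragments scaled to length and library total) ran from 5.27 to 10.04 kb for Ciita, which lists 10 transcripts, and from 2.58 to 3.10 kb for H2-DMa. For H2-Aa, with 1 transcript, it was 1.25 to 1.27 kb.

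**Figure D2:**
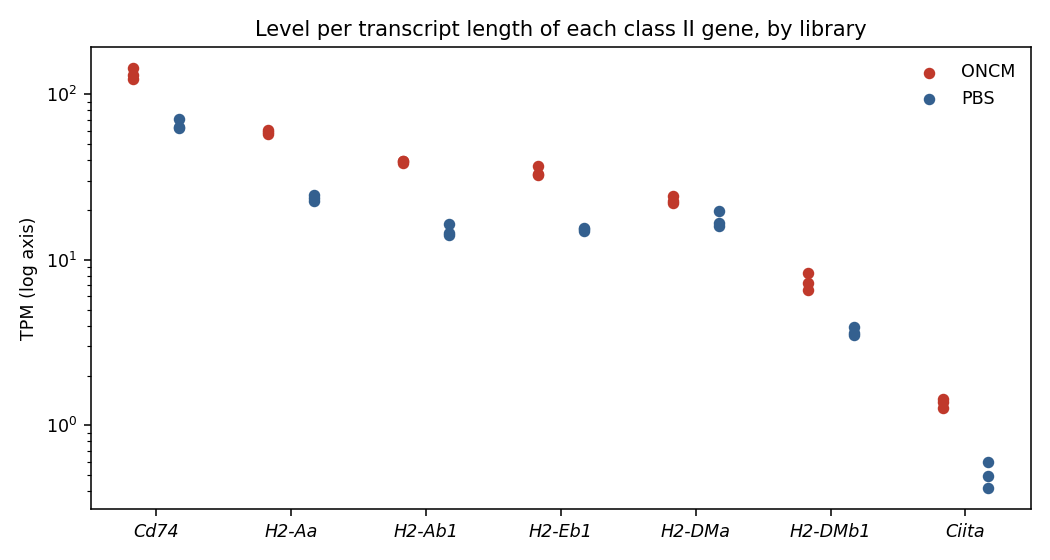
Deposited TPM of each member on a log axis, each point a library, ordered by the mean level with ONCM. Cd74 is at the top with 124 to 143 TPM with ONCM and 62.8 to 70.4 TPM with PBS, Ciita is at the bottom, and H2-DMa has its groups closest together.

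The balance among members was compared inside each library, where scaling between libraries does not enter. Counts of H2-DMa per count of H2-Aa were 0.865, 0.897 and 0.883 with ONCM and 1.50, 1.58 and 1.80 with PBS, so the groups lay far apart. Cd74 per H2-Aa was 2.39, 2.48 and 2.84 with ONCM and 3.07, 2.92 and 3.53 with PBS, with the groups close but not overlapping. H2-DMb1 per H2-Aa was 0.125, 0.136 and 0.166 with ONCM and 0.176, 0.182 and 0.177 with PBS. Each of these 3 ratios had an exact two-sided permutation p = 0.1, the smallest that 3 against 3 libraries allow, and an adjusted p = 0.233 over the 7 ratios computed. The ratios of H2-Ab1, H2-Eb1 and Ciita to H2-Aa overlapped between the groups, with exact permutation p = 0.6, 0.3 and 1. The seventh, Ciita per count of Nlrc5, its counterpart for class I genes, was 0.0847 ± 0.0280 with ONCM and 0.0717 ± 0.0147 with PBS (SD, n = 3 each, exact permutation p = 0.6).

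Other class II genes were near the limit of detection. H2-Oa and H2-Ob encode DO, which restrains DM and is known mainly from B cells. H2-Ob had 5, 11 and 5 counts with ONCM and 3, 3 and 6 counts with PBS, and H2-Oa had at most 4 counts in an ONCM library and at most 5 in a PBS library. H2-Eb2, an E beta relative, had 3, 3 and 4 counts with ONCM and 0 in all PBS libraries. None of these passed the filter on low counts. A count of 0 allows up to 3 counts in a library, which is 0.0465 to 0.0558 CPM here and covers counting error only.

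The factors that read class II promoters went both ways. Of 7 listed genes of the RFX, NF-Y and CREB factors, 2 rose, 1 fell and 4 did not pass, and their median log2 fold change was 0.01. Rfx5, a DNA-binding RFX subunit, stood at 8.94 ± 0.792 CPM with ONCM and 6.93 ± 0.445 CPM with PBS (SD, n = 3 each), a log2 fold change of 0.37 (adjusted p = 0.00191 by edgeR). Rfxap, a second subunit, had -0.35 (adjusted p = 6.46e-04 by edgeR), Rfxank, the third, had -0.09 (adjusted p = 0.153 by edgeR), and the NF-Y subunit gene Nfya rose by 0.12.

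Of 11 tested genes on the interferon-gamma route to Ciita, 10 rose and 1 fell, with a median log2 fold change of 0.40. The list holds activators and inhibitors of the route, so its count gives no single direction for it. Of the inhibitors, Prdm1, a repressor of Ciita, rose by 0.71, and Socs1, a feedback inhibitor of JAK kinases, by 0.29. Irf1, an interferon-induced transcription factor that acts at the Ciita promoter, stood at 58.7 ± 1.55 CPM with ONCM and 38.9 ± 1.14 CPM with PBS (SD, n = 3 each), a log2 fold change of 0.59. The kinase gene Jak1 rose by 0.44 and Irf2 by 0.40. Ifng, the gene for interferon-gamma itself, had 0 counts in all 6 libraries, within the limit given above.

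Endosomal processing genes had 7 rises, 1 fall and 1 that did not pass of 9, with a median of 0.33. Ctss, the cathepsin that trims the invariant chain in class II-bearing immune cells, had the largest, at 22.3 ± 0.252 CPM with ONCM and 4.38 ± 0.618 CPM with PBS (SD, n = 3 each), a log2 fold change of 2.34 (SE 0.08, with an adjusted p = 7.11e-14 by edgeR). The lysosomal protease genes Ctsz, Ctsd and Ctsb rose by 0.50, 0.33 and 0.28. Among 10 tested genes of trafficking and turnover, 6 rose, 2 fell and 2 did not pass, with a median of 0.14. These included Ptpn6, a phosphatase of blood cells, and the tetraspanin gene Cd63, which rose by 1.52 and 0.52, while Myo1e had -0.34. Tap1, also in that list, is a class I peptide transporter and is counted again below.

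T cells need costimulation beside the peptide signal. Of 8 tested genes listed for it, 4 rose and 4 did not pass, with a median of 1.15. The list mixes activating and inhibitory ligands with the receptor gene Cd40, so its count gives no single direction. Cd274, encoding the inhibitory ligand PD-L1, stood at 140.4 ± 1.86 CPM with ONCM and 53.9 ± 2.44 CPM with PBS (SD, n = 3 each). Cd40, Pdcd1lg2, which encodes the inhibitory ligand PD-L2, and Cd86 rose by 1.62, 1.38 and 1.23 on the log2 scale. Cd86 was at 3.90 CPM with ONCM and 1.67 CPM with PBS.

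The class I genes, which present peptides from inside the cell and occur in nearly all cell types, rose in 10 of 10 cases with a median log2 fold change of 1.08, close to the 1.22 of the class II members. Their summed level was 1742 ± 56.7 CPM with ONCM and 934 ± 5.91 CPM with PBS (SD, n = 3 each), a ratio of 1.87. H2-K1, a class I heavy chain, rose by 1.05, B2m, its light chain, by 0.95, and Tap1 and the immunoproteasome gene Psmb8 by 1.35 and 1.56. The difference between the class I and class II rises was not tested.

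**Figure D3:**
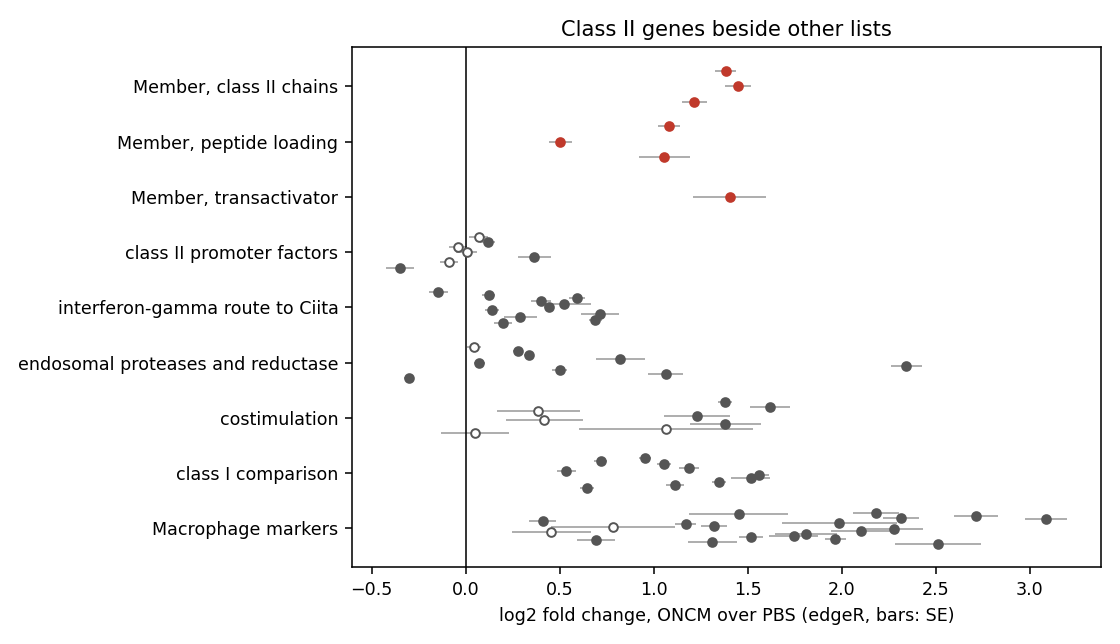
Log2 fold change of ONCM over PBS by edgeR for tested genes of each list, with SE as bars; filled points passed at an adjusted p under 0.05 and open points did not. The class II members in red lie between 0.50 and 1.45, the promoter factors lie around 0, and macrophage markers reach 3.09.

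Along chromosome 17 the class II members are mixed with class I processing genes. The stretch from Brd2 to H2-Ea-ps spans 233 kb in RefSeq, and its genes were set out after their values were seen. Of these, 15 were in the table and 11 were tested. All 11 rose, against 23.9% of all tested genes, but most had been counted above. H2-DMa, H2-DMb1, H2-Ab1, H2-Aa and H2-Eb1 are class II members, and Psmb9, Tap1, Psmb8 and Tap2 are in the class I list. Only Brd2 and H2-DMb2 are in neither, and the groups of H2-DMb2 overlapped. The count is therefore no separate result about the stretch. Brd2 at one end had 0.18, H2-DMa next to it 0.50, and Psmb9, Tap1, Psmb8 and Tap2, between the DM genes and H2-Ab1, had 1.52, 1.35, 1.56 and 1.11.

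**Figure D4:**
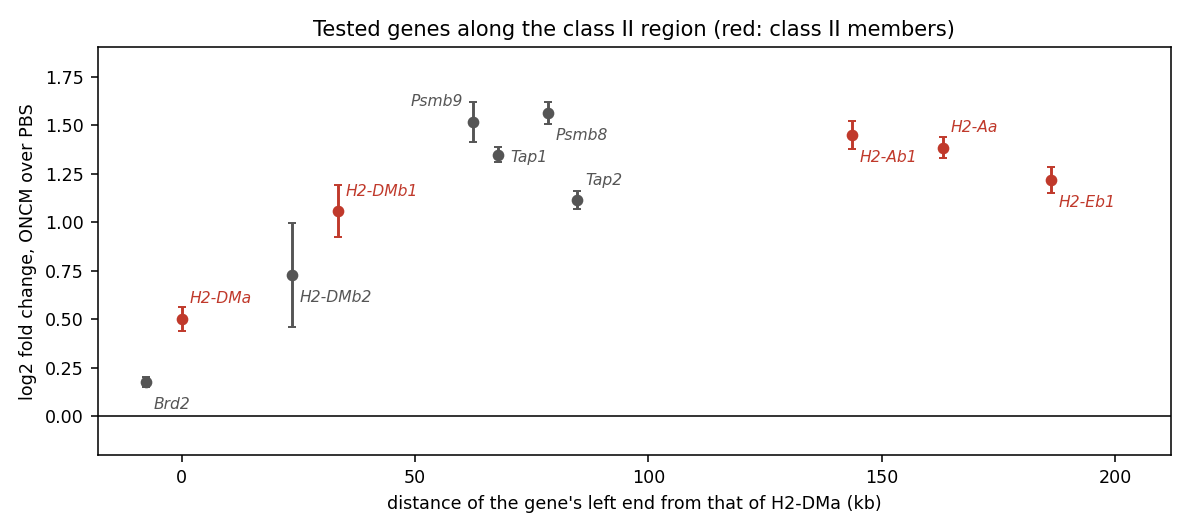
Log2 fold change (edgeR, bars: SE) of the 11 tested genes from Brd2 to H2-Eb1, by distance from the left end of H2-DMa in kb. Values are lowest at Brd2 with 0.18 and H2-DMa with 0.50, and lie above 1 from H2-DMb1 to H2-Eb1.

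Macrophage markers moved with the class II members. Of 20 listed markers 18 rose and 2 did not pass, with a median log2 fold change of 1.78. Their summed level was 196 to 204 CPM with ONCM and 64.5 to 68.3 CPM with PBS, a ratio of 3.00, and none of them was at 0. Mpeg1, a pore-forming protein of macrophages, rose by 1.97 and C1qc, a complement C1q chain, by 3.09. The summed class II level per summed macrophage marker level was 0.842, 0.830 and 0.906 with ONCM and 1.15, 1.25 and 1.25 with PBS, so the macrophage markers differed more than the class II members did. The part of macrophages in the class II rise was not tested.

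Among 9 tested dendritic cell markers 6 rose, 1 fell and 2 did not pass, and the list summed to 131 to 143 CPM with ONCM and 112 to 117 CPM with PBS. Ccr7, the homing receptor of mature dendritic cells, rose by 1.79 and Fscn1, an actin bundler, by 0.35. Levels within the list were uneven. Fscn1 was the highest, at 68.3 CPM with ONCM and 53.5 CPM with PBS, so it weighed most in the sum. Zbtb46, Flt3 and Cd207 stood at 21.5, 19.6 and 20.6 CPM with ONCM and at 16.0, 25.4 and 17.2 CPM with PBS. The remaining markers had means of at most 3.15 CPM in either group, the value of Ccr7 with ONCM. Xcr1 had 4, 19 and 0 counts with ONCM and 0 in the PBS libraries, and Clec10a had 19, 9 and 19 counts with ONCM and 0 in the PBS libraries. B cell markers had 3 rises, 2 falls and 2 not passing of 7 tested, and summed to 121 to 127 CPM with ONCM and 143 to 146 CPM with PBS. Most of this sum came from Ebf1, at 95.3 CPM with ONCM and 114 CPM with PBS. Ighm added 20.6 CPM with ONCM and 27.6 CPM with PBS. Ebf1 and Ighm were the 2 falls. The 2 that did not pass, Cd79a and Cd79b, had -0.50 and -0.57 (adjusted p = 0.0585 and 0.434 by edgeR). The median log2 fold change of the tested markers was -0.26, so the list went both ways. Ms4a1 had 0, 10 and 7 counts with ONCM and 0 in the PBS libraries, and Ighd had 0 in all libraries. Cr2, the complement receptor also known as CD21, rose by 3.00 and Pax5, a B cell transcription factor, by 1.59. The other rise was Cd22, by 2.05, at 0.654 CPM with ONCM and 0.157 CPM with PBS. T and NK cell markers summed to 6.06 to 6.83 CPM with ONCM and 5.76 to 7.28 CPM with PBS, with 1 rise and 1 fall of 4 tested, and Ncr1 at 0. Most of this sum came from Lck, at 3.51 CPM with ONCM and 3.87 CPM with PBS, and from Trac. The CD3 chain genes Cd3e, Cd3d and Cd3g had at most 15 counts in any library and did not pass the filter on low counts. Trac, the T cell receptor alpha constant gene, had -0.89. Cd8a rose by 1.56 (SE 0.48), with 27, 35 and 9 counts with ONCM and 9, 11 and 5 counts with PBS. Its groups overlapped once scaled to library size. The part of these cell types in the class II rise was not tested.

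Markers of the cells of the ganglion itself were summed in the same way. Schwann cell markers had 5 rises, 1 fall and 4 not passing of 10, with S100b at -0.38 and Pmp22 at 0.22. Satellite glia markers had 2 rises, 1 fall and 5 not passing of 8, with Glul at 0.66 and Atp1b2 at 0.29, and summed to 1834 to 1976 CPM with ONCM and 1763 to 1833 CPM with PBS. Endothelial markers had 5 rises and 5 not passing of 10, with Kdr at 0.40 and Cdh5 at 0.31, and summed to 190 to 197 CPM with ONCM and 164 to 172 CPM with PBS. Fibroblast markers had 6 rises and 3 not passing of 9, with Dcn at 0.82 and Lum at 0.94, and summed to 459 to 480 CPM with ONCM and 320 to 325 CPM with PBS. Sensory neuron markers had 2 rises, 9 falls and 1 not passing of 12, with the sodium channel gene Scn10a at -0.97 and Calca, for calcitonin gene-related peptide, at -0.81. None of these 5 lists had a marker at 0, and their part in the class II rise was not tested.

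**Figure D5:**
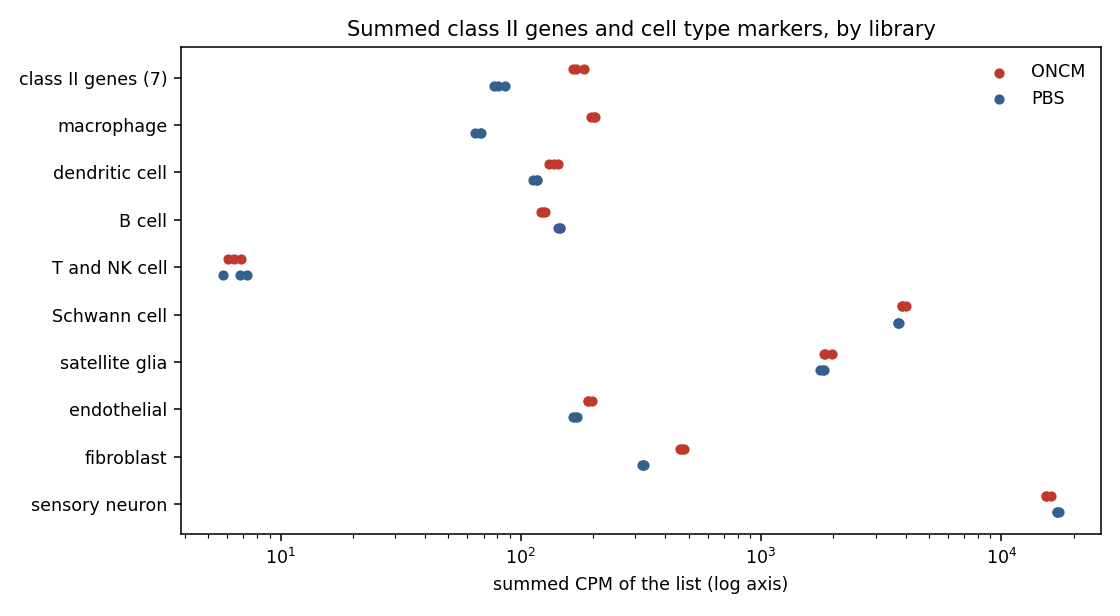
Summed CPM of the 7 class II members and of each marker list on a log axis, each point a library. Within each row the ONCM points are drawn on the upper line and the PBS points on the lower line, whatever their values. The macrophage row has the widest gap between groups, 196 to 204 CPM with ONCM and 64.5 to 68.3 CPM with PBS, and the T and NK cell groups overlap.

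Among genes with informative symbols, those with profiles over the 6 libraries closest to the median class II profile were Hhipl1, Lat2, Chrna1, Sostdc1 and H2bu2. Provisional symbols, such as those starting with LOC or ending in Rik, were left out of this ranking. Likeness was the Euclidean distance between centred log2 CPM profiles, with at least 1 CPM on average, and ran from 0.0694 for Hhipl1 to 0.127 for H2bu2. Because the groups differ in all 5, this measure mostly compares the size of the difference between groups. Lat2, an adaptor of blood cell receptors, stood at 4.93 ± 0.501 CPM with ONCM and 2.09 ± 0.0603 CPM with PBS (SD, n = 3 each). Sostdc1, a secreted antagonist of BMP and WNT signals, stood at 24.6 ± 2.32 CPM with ONCM and 10.4 ± 0.346 CPM with PBS. Chrna1 encodes the muscle nicotinic receptor alpha subunit and stood at 3.47 ± 0.292 CPM with ONCM and 1.45 ± 0.054 CPM with PBS.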

How the data were processed

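The authors deposited 1 table with raw read counts, FPKM and TPM per gene for 6 libraries. Counts as deposited were the basis of the tests, the deposited TPM of comparisons between genes, and the deposited FPKM of the implied transcript lengths. The submitters' processing notes name the build mm10. No source used here names the aligner, the counter, the annotation or the strand setting. Columns were matched to samples by the codes in the labels. Per the labels' protocols, RNA was isolated on columns.

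Genes were kept by filterByExpr, scaled by TMM and tested in R 4.3.3 with edgeR 4.0.16 by the quasi-likelihood test with robust fitting, without covariate; an adjusted p under 0.05 passed. SE is the log2 fold change divided by the square root of F. Within groups, chi-square per degree of freedom over genes with at least 20 counts was 2.76 to 7.09, so no libraries were duplicates. RefSeq coordinates matched 45675 of 45777 genes; transcripts were from GENCODE. Alternatives used DESeq2 1.42.0, limma 3.58.1, other filters and left-out libraries.

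The members and lists were chosen with earlier results of these data known. Named were all 7 members, and up to 4 genes per pathway list and 2 per marker list by smallest p. Also named were genes at or near 0, the 5 most alike genes with informative symbols, and Xist and Ddx3y. Nlrc5, Prdm1, Socs1, Zbtb46, Flt3, Cd207, Ebf1, Ighm, Cd22, Cd79a, Cd79b, Lck, Stat2, Fasn, Tmem108 and Pdxp were named after their values were seen. So were the overlapping genes and those of the chromosome 17 stretch. Some listed genes are not reported here.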

Additional observations from a re-analysis of the deposited data

How the results depend on the processing

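The 7 rises held under all 13 alternatives: RLE factors, DESeq2, no low-count filter, at least 1 CPM in 3 libraries, limma on log2(TPM + 1) and on log2(TPM + 0.1), a replicate block, and each library left out in turn. Across these, log2 fold changes ran from 0.38 to 0.55 for H2-DMa, from 0.83 to 1.14 for H2-DMb1, from 1.01 to 1.13 for Cd74, from 1.10 to 1.25 for H2-Eb1, from 1.29 to 1.41 for H2-Aa, from 1.33 to 1.52 for H2-Ab1 and from 0.65 to 1.56 for Ciita. The largest adjusted p was 0.00507, for H2-DMa. Calls over all genes numbered 9829, 8228 by DESeq2, and 8752 to 9537 with 1 library left out. On log2(TPM + 1), 39.7% of calls were rises, against 49.5% on counts. Same-numbered libraries did not deviate together, with correlations of -0.0453, -0.0124 and 0.00167 for replicates 1, 2 and 3. These values cannot show whether same-numbered samples were prepared together. The replicate block gave 9597 calls and lost none of the 7 members. Depth limits the statements on H2-Oa, H2-Ob, H2-Eb2, Ifng and the lymphocyte markers.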

Other observations

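The X-like and Y-like promoter letters were also looked up across all genes. Of 57 tested genes whose RefSeq promoter windows held the pair, 16 rose, which is 28.1%, against 24.6% of 14452 tested genes with windows but no pair. The 16 include H2-Aa, H2-Eb1 and H2-DMb1, which were known to rise when the letters were set. The difference between the 2 shares is therefore no result about the pair. The median log2 fold change was -0.00 with the pair and -0.01 without it. Besides the 3 class II members, genes with the pair included Stat2, a transcription factor of the interferon response, at 140.4 CPM with ONCM and 82.2 CPM with PBS, and Fasn, fatty acid synthase, at 513 CPM with ONCM and 326 CPM with PBS. Other genes with the pair fell, among them Tmem108 and Pdxp, with log2 fold changes of -1.16 and -0.65. These examples were picked after their values were seen. The letters were set on member promoters, so the match in those members is no independent result.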
